A study of Mus musculus with 2 samples.

Results

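Among the CD45+ cells of mouse B16F10-OVA tumours, 749 of 14809 cells carried many Lyz2 transcripts together with a set of genes known to be induced by low oxygen. They are called hypoxia-gene cells here. A cell was taken when it held at least 5 unique molecular identifiers (UMIs, each standing for 1 captured transcript) of Lyz2, the lysozyme gene of monocytes, macrophages and neutrophils. It also had to hold a UMI of at least 4 of the 6 genes Nos2, Egln3, Ndrg1, Adm, Hilpda and Ero1l. Hspa1a and Hspa1b together had to stay under 0.5% of its UMIs, and it could hold no UMI of Cd3e (T cells), Cd79a (B cells) or Flt3 (dendritic cells). Before that, a barcode needed at least 200 genes, at least 500 UMIs and less than 10% mitochondrial UMIs. The cells were chosen by these measured counts, so the levels of the 6 genes in the chosen cells are a description and were not tested.

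The tumours grew under the skin of mice from injected B16F10-OVA cells, a melanoma line carrying the model antigen ovalbumin. One group received PBS and the other UDSP-Hep, a preparation the labels do not describe further, on days 10, 12, 14 and 16, and 3 tumours per group were taken on day 19. CD45+ leukocytes were sorted and about 10000 cells per group were loaded for droplet sequencing, giving 1 library per group. The strain and age of the mice and the route of the PBS and UDSP-Hep injections were not given in the sources used here, and nothing in the files ties a cell to 1 of the 3 tumours. With 1 library per group there is no replicate error and no test between groups. Every interval below is a 95% interval that covers counting error only.

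Cells sense oxygen through prolyl hydroxylases, the enzymes encoded by the Egln genes, which mark the HIF alpha subunits for destruction by the von Hippel-Lindau protein while oxygen is present. When oxygen falls, HIF accumulates, binds a short DNA core and raises genes of glucose uptake, glycolysis, blood vessel growth and mitochondrial removal. Phagocytes in poorly perfused tumour areas are known for this programme and for enzymes that consume arginine, namely inducible nitric oxide synthase (Nos2) and arginase (Arg1).

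The 6 genes of the rule lie on 6 chromosomes (GENCODE M21 annotation, GRCm38, the mouse build also called mm10). Nos2 lies at chr11:78920787-78960254 and makes nitric oxide from arginine. Egln3, at chr12:54178981-54203860, encodes an oxygen-sensing prolyl hydroxylase that is itself a HIF target. Ndrg1, at chr15:66929318-66969640, is a stress-induced gene, and Adm, at chr7:110627661-110629820, encodes the vessel-dilating peptide adrenomedullin. Hilpda, at chr6:29272488-29275446, encodes a lipid droplet protein that inhibits triglyceride breakdown. Ero1l, at chr14:45283087-45318771, encodes an oxidase that helps form disulphide bonds in the endoplasmic reticulum.

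Promoters were read to see whether genes high in these cells share the HIF core in their sequence. The 250 bases before each gene's start were taken from RefSeq (GRCm38.p6) and searched on both strands for the cores ACGTG and GCGTG, whose reverse complements are CACGT and CACGC. The cores occurred in 38.6% of all 32851 promoters of that length. They occurred in 29 of 35 promoters (82.9%) of a list of HIF targets outside glycolysis, covering 24 of the 25 listed genes that had an entry. They occurred in 28 of 36 promoters (77.8%) of the glycolysis list and in 8 of 16 (50%) of the oxidative phosphorylation list. All 4 genes of the rule with an entry (Egln3, Adm, Hilpda and Ero1l) had a promoter with a match. Of the 15 genes outside the rule that stood highest in the hypoxia-gene cells, 13 had an entry and 6 of their 20 promoters (30%) held a match. Shown here are a rule gene with 1 match, a rule gene with 3, the HIF targets Bnip3 and Slc2a1 that were high without being part of the rule, and Mmp13, which was high with no match in its window. Capitals mark the core, and each sequence runs 5′ to 3′ along the gene's own strand and ends at the base before the start.
Egln3: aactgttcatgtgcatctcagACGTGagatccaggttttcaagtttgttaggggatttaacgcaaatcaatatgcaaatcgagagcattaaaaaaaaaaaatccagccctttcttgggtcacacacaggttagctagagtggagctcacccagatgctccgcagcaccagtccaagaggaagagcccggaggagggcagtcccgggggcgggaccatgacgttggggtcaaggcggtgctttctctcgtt
Ero1l: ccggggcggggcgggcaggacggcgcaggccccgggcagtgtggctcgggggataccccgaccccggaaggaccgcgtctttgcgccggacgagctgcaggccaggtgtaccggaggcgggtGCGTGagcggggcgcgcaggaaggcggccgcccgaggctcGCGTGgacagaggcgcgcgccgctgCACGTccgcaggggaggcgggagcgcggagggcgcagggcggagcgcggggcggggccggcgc
Bnip3: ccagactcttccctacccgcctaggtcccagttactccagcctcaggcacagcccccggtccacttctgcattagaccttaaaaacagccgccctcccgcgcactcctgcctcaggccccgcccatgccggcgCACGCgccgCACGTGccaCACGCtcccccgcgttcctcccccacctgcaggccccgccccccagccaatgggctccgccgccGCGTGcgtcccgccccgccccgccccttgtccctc
Slc2a1: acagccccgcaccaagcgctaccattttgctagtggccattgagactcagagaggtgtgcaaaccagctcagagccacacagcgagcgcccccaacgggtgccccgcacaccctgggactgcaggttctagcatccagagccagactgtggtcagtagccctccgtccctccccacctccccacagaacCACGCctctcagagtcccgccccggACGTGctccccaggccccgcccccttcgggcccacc
Mmp13: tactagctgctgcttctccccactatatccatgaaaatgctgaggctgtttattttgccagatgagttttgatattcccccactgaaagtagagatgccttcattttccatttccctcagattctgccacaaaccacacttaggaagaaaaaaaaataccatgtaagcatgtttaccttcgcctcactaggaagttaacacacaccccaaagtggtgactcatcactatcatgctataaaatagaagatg
The Egln3 window is chr12:54203875-54204124 on the minus strand, and its match begins 229 bases before the start. The Ero1l window is chr14:45318573-45318822 on the minus strand, entered in RefSeq under the symbol Ero1a, with matches between 128 and 63 bases before the start. The Bnip3 window, chr7:138909507-138909756 on the minus strand, held 5 matches, of which a pair overlaps in the palindrome CACGTG. The Slc2a1 window, chr4:119108495-119108744 on the plus strand, held 2 matches, 61 and 36 bases before the start. The Mmp13 window is chr9:7272264-7272513 on the plus strand. A match describes the letters of the window and is no evidence of HIF binding.

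**Figure D1:**
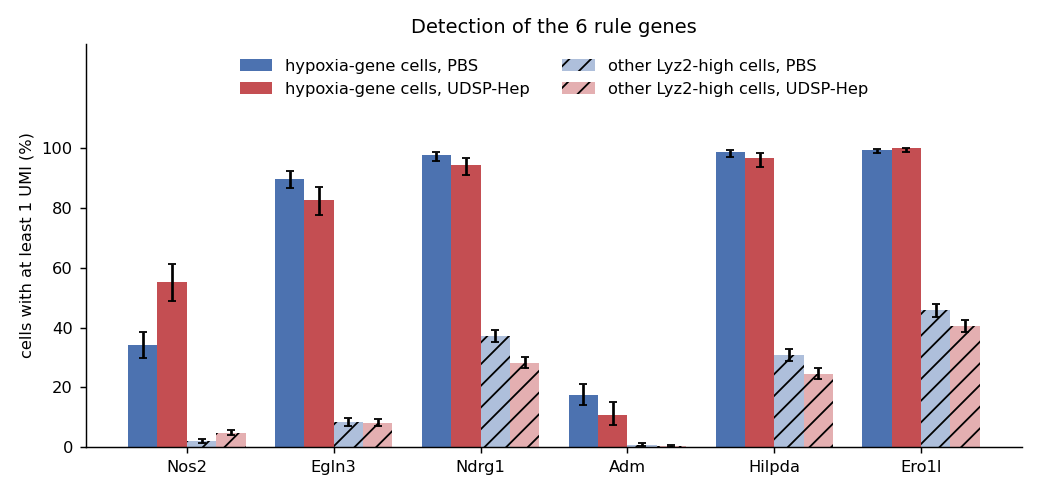
Share of cells (percent, bars) with at least 1 UMI of each of the 6 genes of the rule, in hypoxia-gene cells and in the other Lyz2-high cells of the PBS and UDSP-Hep libraries, with 95% Clopper-Pearson intervals. Ero1l, Hilpda and Ndrg1 were detected in over 94% of the chosen cells of both libraries, whereas Nos2 was detected in 34.2% and 55.1% and Adm in 17.4% and 10.7%.

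The name Nos2 phagocyte held for only part of these cells. Nos2 had a UMI in 34.2% of the 477 hypoxia-gene cells of the PBS library and in 55.1% of the 272 of the UDSP-Hep library. Ero1l was detected in 99.6% and 100%, Hilpda in 98.7% and 96.7%, Ndrg1 in 97.7% and 94.5%, and Egln3 in 89.7% and 82.7%, in the same order. Adm was the rarest, at 17.4% and 10.7%. Most cells therefore qualified through Ero1l, Hilpda, Ndrg1 and Egln3, and of the 130 PBS cells with exactly 5 of the 6 genes, 91 lacked only Adm and 32 lacked only Nos2. In the other Lyz2-high cells, Nos2 was found in 2.05% and 4.68%. In cells with Cd3e and fewer than 5 Lyz2 UMIs, which should lack it, it was found in 4.23% and 2.58%. These Cd3e cells had median depths of 6976 and 5329 UMIs. They held 272 and 88 Nos2 UMIs, with up to 55 and 12 in a cell, so their share is not a plain background. The rule moved Lyz2-high cells with Nos2 and enough of its other genes into the hypoxia-gene cells. That lowers the share left in the other Lyz2-high cells, which therefore cannot be judged against the Cd3e cells. Among all Lyz2-high cells Nos2 was found in 8.37% and 10.2%, above the share of the Cd3e cells in both libraries.

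The chosen cells were more deeply sampled than the rest of the Lyz2-high cells, which had medians of 9044 UMIs (PBS) and 8574 UMIs (UDSP-Hep) against 12277 and 13509 in the hypoxia-gene cells. The summed UMIs behind the values below were 7105306 and 4663500 for the hypoxia-gene cells and 20579593 and 21877849 for the other Lyz2-high cells. The median mitochondrial share was 1.83% and 1.93%. The libraries shared 25 barcodes, none of them in hypoxia-gene cells of both. Levels are given as CPM, the UMIs of a gene per 1000000 UMIs of the summed cells.

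By their markers the hypoxia-gene cells were phagocytes of several kinds. Macrophage markers (11 genes, among them C1qa, Apoe and Csf1r) summed to 6752 CPM in the PBS library and 7136 CPM in the UDSP-Hep library, against 6328 and 6007 in the other Lyz2-high cells. Classical monocyte markers (8 genes, among them Fn1 and Chil3) summed to 6528 and 4559 CPM, below the 9413 and 8202 CPM of the others. By fixed marker limits, 35.4% of the PBS cells and 30.5% of the UDSP-Hep cells were C1q macrophages (at least 0.1% of UMIs from C1qa, C1qb and C1qc). Classical monocytes made up 41.5% and 26.1%, neutrophil-marked cells 0.629% and 10.3%, and 22.4% and 33.1% met none of these limits. B cell, eosinophil and basophil, and erythroid markers each summed to under 17 CPM, and melanoma markers to 58.1 and 64.8 CPM, against 39.6 and 41.5 in the others. T and NK markers summed to 205 and 654 CPM, against 134 and 408 in the others. At least 1 such UMI was held by 27.0% and 61.0% of the hypoxia-gene cells, against 17.5% and 40% of the others. Dendritic markers summed to 42.6 and 55.1 CPM, against 75.5 and 48.6. Fibroblast and endothelium markers summed to 77.8 and 67.8 CPM, against 47.8 and 60.5. Neutrophil markers (10 genes) summed to 407 CPM in the PBS library, where Cxcr1 and Stfa2l1 were at 0, and 1731 CPM in the UDSP-Hep library. The others stood at 558 and 1589 CPM. In the PBS hypoxia-gene cells 1 cell held 93.3% of the S100a9 UMIs and 1 held 88.1% of the S100a8 UMIs.

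The hypoxia-gene cells formed 19.7% of the Lyz2-high cells of the PBS library (477 of 2426, 18.1 to 21.3) and 11.0% of those of the UDSP-Hep library (272 of 2472, 9.80 to 12.3). The ratio of UDSP-Hep over PBS was 0.560 (0.487 to 0.642). Of all filtered cells they were 6.69% and 3.54%, a ratio of 0.530. Within C1q macrophages the shares were 30.1% and 16.7% (ratio 0.554, 0.439 to 0.700) and within classical monocytes 14.7% and 6.34% (0.431, 0.333 to 0.559). Of the neutrophil-marked cells, 3 of 12 and 28 of 132 qualified. With each Lyz2-high cell thinned to 3000 UMIs, the shares were 5.13% and 2.84% and the ratio was 0.554 (0.408 to 0.752).

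The ratio stayed below 1 in each alternative way of drawing the group. At least 3 of the 6 genes gave a ratio of 0.635 and at least 5 of 6 gave 0.599. Lifting the limit on Hspa1a and Hspa1b gave 0.522, lifting that on Cd3e, Cd79a and Flt3 gave 0.628, and leaving out cells with 3 or more UMIs of T and NK markers gave 0.510. The largest move came with Lyz2 of at least 1, which gave 24.2% and 9.56% and a ratio of 0.395. Of the cells with at least 4 of the 6 genes, 763 of 1504 in the PBS library and 177 of 590 in the UDSP-Hep library had fewer than 5 Lyz2 UMIs, and 441 and 78 of those held Csf1r without Cd3e. Each group is 1 library, so a difference between treatments and a difference between libraries cannot be told apart.

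**Figure D2:**
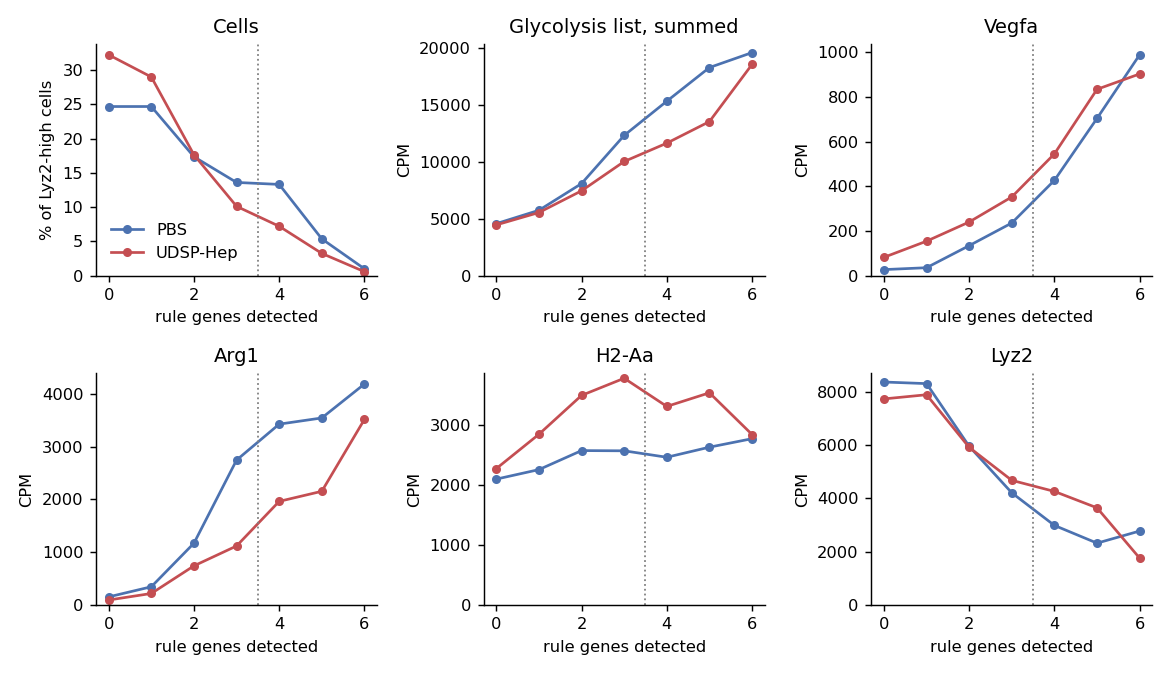
Lyz2-high cells ordered by how many of the 6 genes of the rule were detected (x axis, 0 to 6), for the PBS and UDSP-Hep libraries: the share of Lyz2-high cells, the summed glycolysis list, Vegfa, Arg1, H2-Aa and Lyz2, in CPM except the first panel in percent. The dotted line between 3 and 4 is the limit of the rule, and the glycolysis list is higher with each further gene on both sides of it, from 4570 CPM at 0 genes to 19621 at 6 in the PBS library.

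Many cells lay just outside the limit at 4 genes. Cells with 3 of the 6 genes numbered 330 (13.6% of Lyz2-high cells) and 250 (10.1%), and cells with 4 numbered 323 and 178. From 3 to 4 genes, Ndrg1 went from 196 to 430 CPM in the PBS library and from 145 to 232 CPM in the UDSP-Hep library, and Nos2 from 13.3 to 37.0 and from 57.2 to 173. Both are genes of the rule, so their rise with the number of genes detected is set by the ordering. The glycolysis list, which the rule did not use, summed to 12333 CPM at 3 genes and 15344 at 4 in the PBS library, and to 10038 and 11653 in the UDSP-Hep library. It stood at 4570 CPM and 4459 CPM in cells with none of the genes and at 19621 and 18581 in cells with all 6. Lyz2 went the other way in both libraries. It went from 8377 CPM at 0 genes to 2318 at 5 and 2774 at 6 in the PBS library. In the UDSP-Hep library it went from 7742 CPM at 0 genes to 3646 at 5 and 1753 at 6. Cells with more genes detected also had more UMIs, from a median of 7487 at 0 to 12003 at 4 in the PBS library and from 6738 to 13196 in the UDSP-Hep library, and the part of depth in these levels was not tested.

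Nos2 was detected in a larger share of the UDSP-Hep cells also when cells were chosen without it, although the intervals overlapped at equal depth. Among Lyz2-high cells with at least 4 of the other 5 genes, 122 of 436 (28.0%, 23.8 to 32.4) held a Nos2 UMI in the PBS library and 84 of 206 (40.8%, 34.0 to 47.8) in the UDSP-Hep library. Thinned to 3000 UMIs, these shares were 17.0% (13.6 to 20.8) and 23.8% (18.1 to 30.2). With at least 3 of the other 5, the shares were 20.6% and 31.4%, and after thinning 12.1% (9.94 to 14.6) and 17.5% (14.2 to 21.2), again with overlapping intervals. In the hypoxia-gene cells, whose rule used Nos2, the thinned shares were 20.1% (16.6 to 24.0) and 30.6% (25.2 to 36.5), and its level was 161 and 283 CPM. Judged in the same way by the other 5 genes (at least 3 of 5), Hilpda was detected in 90.9% and 79.0%, Ndrg1 in 84.3% and 74.9%, Egln3 in 62.0% and 52.4%, Adm in 10.4% and 5.58%, and Ero1l in 94.8% and 97.1%. By this count Hilpda, Ndrg1, Egln3 and Adm were detected in a larger share of the PBS cells, and Nos2 in a larger share of the UDSP-Hep cells. Thinned to 3000 UMIs, the shares were 73.1% and 54.5% for Hilpda, 60.2% and 37.9% for Ndrg1 and 35.4% and 26.2% for Egln3. Thinned Adm was at 4.91% (3.51 to 6.65) and 3.29% (1.93 to 5.21), with overlapping intervals. Ero1l turned with thinning, to 77.6% (73.7 to 81.2) in the PBS library and 67.7% (61.9 to 73.2) in the UDSP-Hep library. Among all Lyz2-high cells Nos2 was detected in 8.37% and 10.2%.

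The comparison of hypoxia-gene cells with the other Lyz2-high cells uses the contrast that chose them, so it describes the cells. A gene counted as higher or lower when its CPM ratio was at least 1.5 or at most 1/1.5 in both libraries, among 10129 genes with at least 50 UMIs. By this count 513 genes (5.06%) were higher and 702 (6.93%) were lower, and the median of all genes was -0.13 and -0.080 on the log2 scale. Higher genes were 42.2% of those counted, and 56.6% when the cells were scaled by the median of ratios.

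**Figure D3:**
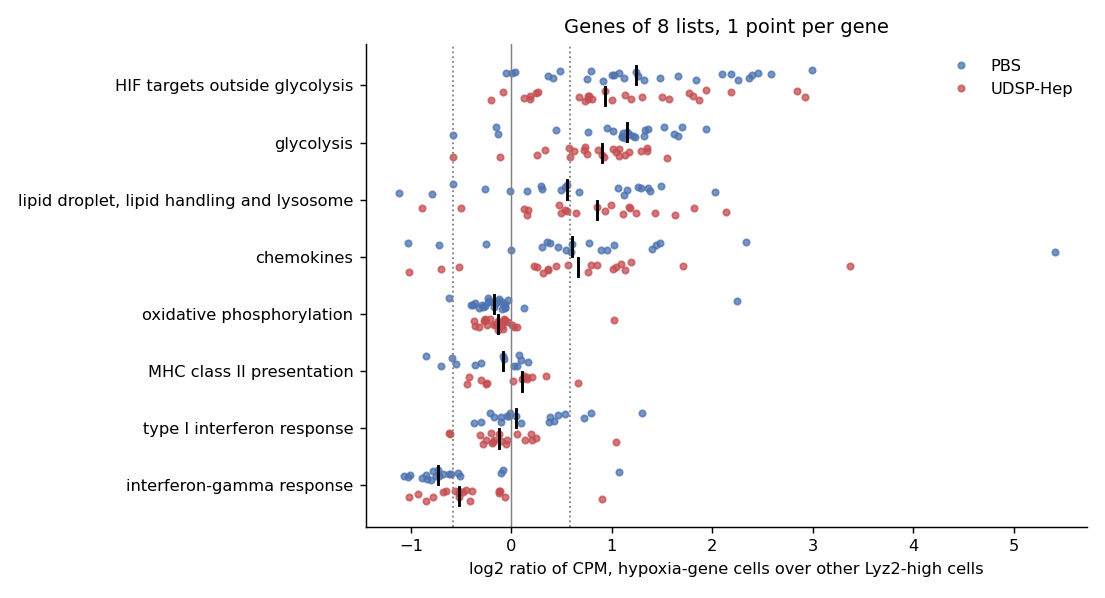
Log2 ratio of CPM in hypoxia-gene cells over other Lyz2-high cells for each gene (points) of 8 gene lists, in the PBS and UDSP-Hep libraries, with the list median as a black bar and dotted lines at 1.5-fold in either direction. The HIF target and glycolysis lists lie mostly above the upper line, the oxidative phosphorylation list near 0.

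Genes of the HIF programme outside the 6 were broadly higher. Of 27 measured HIF targets outside glycolysis, 20 were higher and none lower, with medians of 1.24 (PBS) and 0.93 (UDSP-Hep) on the log2 scale. Bnip3, which drives removal of mitochondria, stood at 548 CPM against 114 in the PBS library and 407 against 89.1 in the UDSP-Hep library, ratios of 4.78 (4.54 to 5.04) and 4.56 (4.28 to 4.86). Vegfa, the vessel growth factor, stood at 536 against 102 CPM and 650 against 191 CPM, ratios of 5.25 (4.97 to 5.54) and 3.40 (3.24 to 3.56). Both genes were higher in the hypoxia-gene cells of each library. Mxi1, a MYC antagonist, had ratios of 4.55 and 2.46, and Zfp395 had 5.14 and 2.97.

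Most glycolysis genes were higher. Of 23 measured genes, 18 were higher, 5 did not pass the fold and none was lower (medians 1.15 and 0.91). The glucose transporter Slc2a1 stood at 493 against 129 CPM in the PBS library and 313 against 107 CPM in the UDSP-Hep library, ratios of 3.83 (3.64 to 4.03) and 2.93 (2.74 to 3.12). Gapdh, a central glycolytic enzyme, stood at 4201 against 1868 CPM and 2832 against 1512 CPM. Ldha, which turns pyruvate into lactate, stood at 1348 against 575 CPM and 976 against 434 CPM, and Pdk1, which keeps pyruvate out of mitochondria, had ratios of 2.16 and 1.68. Of 25 oxidative phosphorylation genes 1 was higher, Cox4i2, the subunit isoform known from low oxygen, at only 11.3 against 2.38 CPM and 3.43 against 1.69 CPM. That list had medians of -0.18 and -0.13.

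The oxygen sensors themselves were partly higher: of 12 measured genes of oxygen sensing, Egln1 (254 against 73.0 CPM in the PBS library and 200 against 72.1 CPM in the UDSP-Hep library) and Vhl (ratios 1.66 and 1.56) were counted. Hif1a, the alpha subunit, had ratios of 1.40 (1.35 to 1.45) and 1.32 (1.28 to 1.37), short of the fold used.

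Of the 18 measured genes of arginine and nitric oxide metabolism, 4 were higher, 1 was lower and 13 passed in neither direction, with medians of 0.048 (PBS) and -0.11 (UDSP-Hep). Arg1, which splits arginine into ornithine and urea, stood at 3499 against 1038 CPM in the PBS library and at 2098 against 471 CPM in the UDSP-Hep library, ratios of 3.37 (3.31 to 3.43) and 4.46 (4.34 to 4.58). The arginine transporter Slc7a2 stood at 361 against 77.6 CPM and 215 against 35.2 CPM. Both were higher in the hypoxia-gene cells of each library. Arg2 and Odc1, which makes putrescine from ornithine, were the other genes of this list that were higher.

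Matrix enzymes and growth factors led the ranking. Mmp13 (collagenase 3), at chr9:7272514-7283331, stood at 298 against 42.5 CPM in the PBS library and 189 against 16.4 CPM in the UDSP-Hep library, ratios of 7.01 (6.48 to 7.60) and 11.5 (10.2 to 13.1). Mmp12, the macrophage elastase, stood at 578 against 90.7 CPM and 981 against 187 CPM. Inhba, the activin A subunit, stood at 286 against 46.5 CPM and 402 against 78.7 CPM. These 3 were high in both libraries, although 1 cell held 13.7% and 19.4% of the Mmp13 UMIs of the 2 libraries. The remaining genes of the 15 highest were Il7r, Basp1, Pmp22, Lhfpl2, Gys1 (glycogen synthase), Spp1 (osteopontin) and Emp1. All 15 were past 1.5-fold within C1q macrophages and within classical monocytes, in both libraries. In the cells with none of the marker limits all 15 were in the UDSP-Hep library and 14 in the PBS library, where Spp1 stood at 766 against 719 CPM, a ratio of 1.07 (0.99 to 1.14).

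The 10 lowest were Ace, Adgre4, Hp, Ifitm6, Fam49a, Tmem176a, Itgal, Cx3cr1, Adgre5 and Tmem176b. Ace stood at 14.4 against 89.9 CPM in the PBS library and 42.5 against 203 CPM in the UDSP-Hep library. Several are monocyte genes, and nonclassical monocyte markers (6 genes) summed to 327 against 727 CPM and 557 against 1448 CPM. Ace and Adgre4 are themselves among those 6 markers, so the sum partly repeats their values, and the part of nonclassical monocytes was not tested. Within classical monocytes and within the cells with none of the marker limits all 10 were past 1.5-fold in both libraries, and within C1q macrophages 8 (PBS) and 6 (UDSP-Hep).

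Inflammatory signals differed gene by gene. Of 18 cytokine and eicosanoid genes 6 were higher (Il1a, Csf1, Ptgs2, Ptges, Il1rn and Inhba) and Casp1 was lower, while Il1b, the main secreted interleukin 1, was at 1200 against 1273 CPM and 1923 against 2574 CPM. Of 20 chemokine genes 7 were higher (Ppbp, Cxcl1, Cxcl2, Cxcl3, Ccl7, Ccl17 and Pf4) and 1 was lower. Cxcl2, a neutrophil attractant, stood at 1454 against 549 CPM and 2172 against 1057 CPM. The chemokine that was lower, Cxcl10, which attracts T cells, stood at 249 against 507 CPM and 206 against 419 CPM. Ppbp rested on few cells, with UMIs in 11 PBS and 6 UDSP-Hep hypoxia-gene cells.

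Genes of the interferon-gamma response were more often lower. Of 19, 6 were lower, among them Irf1, Gbp3, Gbp5 and Ifngr1, and 1 was higher, Cd274, which encodes the checkpoint ligand PD-L1 (medians -0.73 and -0.52). Cd274 stood at 418 against 199 CPM in the PBS library and 581 against 311 CPM in the UDSP-Hep library. No gene of MHC class II (13) or class I (12) passed the fold in either direction, and H2-Aa stood at 2524 against 2363 CPM and 3350 against 3016 CPM. Of 19 type I interferon genes only Rsad2 was higher (ratios 2.46 and 2.06).

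Lipid and lysosome genes were higher in 10 of 21, with Dgat2 lower. Fabp5, a fatty acid carrier, stood at 2327 against 1046 CPM and 1783 against 792 CPM, and Lgals3 (galectin 3) at 5192 against 2162 CPM and 3996 against 1695 CPM. Of 16 metallothionein and iron genes 4 were higher (Mt2, Hmox1, Fth1 and Tfrc), with Fth1, the ferritin heavy chain, at 15103 against 5944 CPM and 24478 against 10423 CPM. Of 24 stress response genes 4 were higher (Ddit3, Trib3, Slc7a11 and Slc3a2), and of 20 pattern receptors 4 (Clec4d, Clec4e, Clec4n and Cd36).

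Within the hypoxia-gene cells the 2 libraries were then compared. A ratio of at least 1.5 counted as higher in UDSP-Hep, and at most 1/1.5 as lower, among 9140 genes with at least 50 UMIs. By that count 1180 genes (12.9%) were higher and 377 (4.12%) were lower, and the median of all genes was 0.11 on the log2 scale. Higher genes were 75.8% of those counted, 60.3% with median-of-ratios scaling and 64.8% after thinning. In the other Lyz2-high cells, 8.85% of 10955 genes were higher and 3.08% lower, with a median of 0.082. Counted by kind of hypoxia-gene cell, 873 of 7482 genes were higher and 480 lower within C1q macrophages (median 0.059). Within classical monocytes 730 of 6267 were higher and 353 lower (median 0.074). In the cells with none of the marker limits 769 of 5936 were higher and 371 lower (median 0.080). T and NK marker UMIs were more common in the UDSP-Hep hypoxia-gene cells (at least 3 in 18 PBS and 51 UDSP-Hep cells). They summed to 205 and 654 CPM over all hypoxia-gene cells, and went the same way in the other Lyz2-high cells, at 134 and 408 CPM. Without the hypoxia-gene cells holding at least 3 such UMIs, 925 genes were higher and 431 lower.

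**Figure D4:**
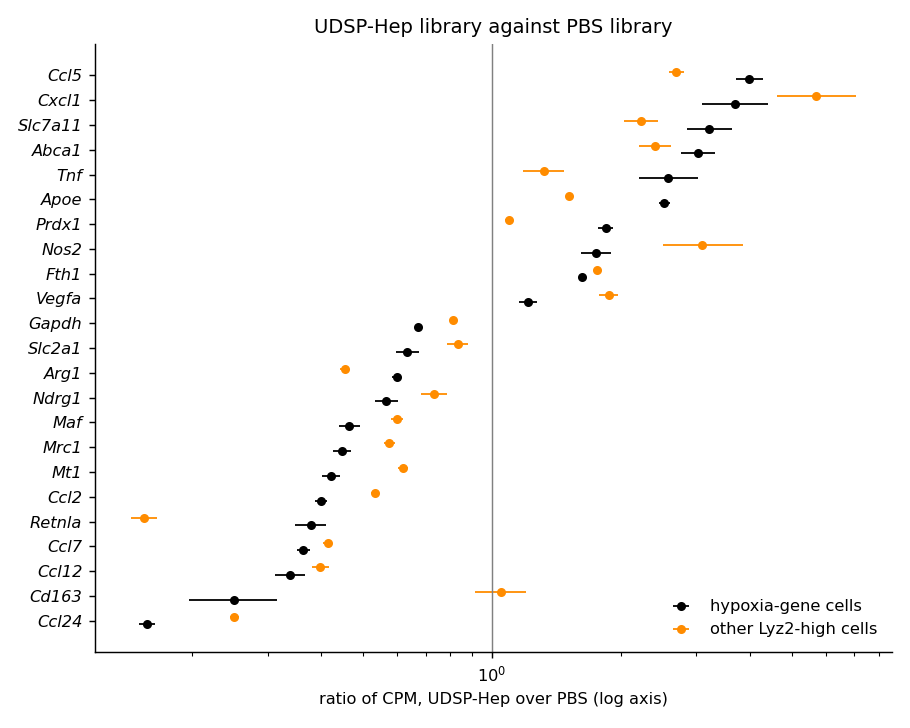
Ratio of CPM in the UDSP-Hep over the PBS library (x axis, log scale) for 23 genes, in hypoxia-gene cells (black) and in the other Lyz2-high cells (orange), with 95% exact intervals. Ccl24 and Ccl7 lie well below 1 in both kinds of cell, and Nos2 and Apoe above 1.

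Genes of alternatively activated macrophages stood lower in UDSP-Hep. Of 14 measured genes 11 were lower and none higher, with a median of -0.99, against 6 of the same list and a median of -0.50 in the other Lyz2-high cells. Mrc1, the mannose receptor, stood at 1025 CPM in PBS and 459 CPM in UDSP-Hep cells, with a ratio of 0.448 (0.427 to 0.470). Maf, a transcription factor of tissue macrophages, stood at 765 and 356 CPM. Ccl24, an eosinophil attractant that is on the list of chemokines too, stood at 3048 and 479 CPM, a ratio of 0.157 (0.150 to 0.164), and had a ratio of 0.251 in the other Lyz2-high cells. All 3 were lower in the UDSP-Hep cells, and the share of classical monocytes was lower there too. Within C1q macrophages 11 of 14 were lower and none higher (median -1.08) and within classical monocytes 7 of 9 (median -1.04). In the cells with none of the marker limits, 6 of 12 were lower and 2 higher (median -0.65). Retnla went opposite ways, at 734 and 46.4 CPM in C1q macrophages and at 242 and 472 CPM in the cells with none of the limits, and 1 cell held 71.1% of its UDSP-Hep UMIs. For Cd163 1 cell held 65.5%.

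Chemokines went both ways. Of 20, 6 were higher in UDSP-Hep (Ccl3, Ccl5, Ccl22, Cxcl1, Cxcl3 and Cxcl16) and 5 lower (Ccl2, Ccl7, Ccl12, Ccl24 and Ppbp). Ccl7, a monocyte attractant like Ccl2, stood at 2363 and 859 CPM (PBS, UDSP-Hep) and Ccl2 at 2475 and 989 CPM, ratios of 0.363 (0.351 to 0.376) and 0.400 (0.387 to 0.413). Cxcl1, a neutrophil attractant, had a ratio of 3.69 (3.10 to 4.41) from 25.8 CPM in the PBS cells, and Ccl3 stood at 450 and 874 CPM. Ccl5, which T cells also make, stood at 145 and 577 CPM, and the part of the T and NK marker UMIs in it was not tested. The list's median was 0.095 and was -0.28 without the cells with 3 or more T and NK marker UMIs.

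Several other inflammatory genes were higher. Of 17 cytokine and eicosanoid genes 7 were higher and 1 lower (median 0.49), and Tnf stood at 35.2 CPM in PBS and 90.7 CPM in UDSP-Hep cells, with a ratio of 2.58 (2.20 to 3.03). Of 20 pattern receptors 7 were higher and none lower, among them Tlr2 (100 and 209 CPM) and the formyl peptide receptor Fpr2 (34.2 and 98.2 CPM). The neutrophil marker sums, given above, moved the same way, and without the neutrophil-marked cells 4 cytokine and eicosanoid genes were higher and 1 lower (median 0.18), and 6 pattern receptors higher and 1 lower. The counts of both lists by kind of cell are to be read beside those over all genes given above. Of the pattern receptors, 11 of 19 were higher and none lower within C1q macrophages (median 0.64), 3 higher and 3 lower of 17 within classical monocytes (median -0.15), and 3 of 15 higher and none lower in the cells with none of the limits (median 0.17). Of the cytokine and eicosanoid genes, 6 of 14 were higher and none lower within C1q macrophages, 2 higher and 4 lower of 16 within classical monocytes, and 4 of 12 higher and none lower in the cells with none of the limits. In the other Lyz2-high cells 10 of 21 cytokine and eicosanoid genes and 7 of 20 pattern receptors were higher in UDSP-Hep and none lower. The lipid and lysosome list had 8 of 21 higher and none lower, with Abca1, a cholesterol exporter, at 99.8 and 302 CPM and Apoe, a lipid carrier, at 944 and 2385 CPM. Of 16 metallothionein and iron genes 9 were higher and 3 lower (median 0.63). Slc7a11, the cystine importer, stood at 55.3 and 178 CPM, and the antioxidant enzyme Prdx1 at 636 and 1172 CPM.

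Most hypoxia and glycolysis genes did not pass the fold between the libraries. Their counts are to be read beside all genes, of which 12.9% were higher and 4.12% lower in UDSP-Hep, with a median of 0.11. Of 22 glycolysis genes 3 were lower in UDSP-Hep (Slc2a1, Hk1 and Pfkp) and none higher, with a median of -0.33 against -0.046 in the other Lyz2-high cells. Without the cells with 3 or more T and NK marker UMIs 1 was lower (median -0.25), and with median-of-ratios scaling 5. Slc2a1 went from 493 to 313 CPM, a ratio of 0.635 (0.597 to 0.675), and Gapdh had a ratio of 0.674. Of 27 HIF targets outside glycolysis 3 were lower (Ankrd37, Mxi1 and Zfp395) and 2 higher (Bhlhe41 and Rora), with a median of -0.11, and Vegfa stood at 536 and 650 CPM. Within C1q macrophages 10 of 25 HIF targets were lower and 1 higher, and 7 of 21 glycolysis genes were lower (all genes: 480 of 7482 lower). Within classical monocytes 5 of 22 HIF targets were lower and 1 higher, and 3 of 22 glycolysis genes were lower (all genes: 353 of 6267 lower). In the cells with none of the marker limits 3 of 23 HIF targets were higher and none lower, and 2 of 21 glycolysis genes were lower. Over all genes there, 769 of 5936 were higher and 371 lower. Hypoxia-gene cells were thus fewer in UDSP-Hep, and those that qualified held Slc2a1 at a lower CPM. Arg1 was lower too, at 3499 and 2098 CPM, with a ratio of 0.599 (0.585 to 0.614). Its ratio in the other Lyz2-high cells was lower still, at 0.453 (0.443 to 0.464).

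Interferon lists parted. Of 19 type I interferon genes 7 were lower in UDSP-Hep and none higher (median -0.52), Rsad2 at 751 and 450 CPM. Of 19 interferon-gamma response genes 4 were higher, among them Ifngr1, Gbp5 and Iigp1, and none lower (median 0.41), or 2 higher and 1 lower with median-of-ratios scaling, and Ifngr1, a chain of the interferon-gamma receptor, stood at 192 and 314 CPM. Within C1q macrophages 15 of the 19 were higher (median 0.77), but within classical monocytes 2 were higher and 1 lower, near the shares over all genes there. In the cells with none of the limits 2 were higher and 7 lower. Matrix and vessel genes were lower in 9 of 20 and higher in 2, with Timp1, the inhibitor of matrix proteases, at 77.8 and 21.0 CPM. Spp1, at 1373 and 858 CPM, went opposite ways by kind of cell, from 1526 to 811 CPM in C1q macrophages and from 1528 to 346 CPM in classical monocytes, but from 766 to 1527 CPM in the cells with none of the limits. It went from 1932 to 379 CPM in the hypoxia-gene cells with a Nos2 UMI and from 1069 to 1497 CPM in those without, and 1 cell held 16.8% of its UDSP-Hep UMIs.

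The largest ratios rested on few cells. The 12 highest genes included the granzymes Gzmc, Gzmd, Gzme, Gzmf and Gzmg, which are T and NK cell genes and near-identical to one another, and 1 UDSP-Hep cell held 2177 of their 2317 UMIs there, against 3 UMIs in the PBS cells. Slc40a1, the iron exporter, had a ratio of 47.6 (23.8 to 112), and 1 cell held 77.6% of its UDSP-Hep UMIs. Spread over more UDSP-Hep cells were Lcn2, an iron-binding protein of neutrophils and macrophages, and Plpp3 (4.64 and 51.9 CPM). Lcn2 stood at 7.32 and 137 CPM, and 1 cell held 24.0% of its UDSP-Hep UMIs. In neutrophil-marked cells outside the hypoxia-gene cells Lcn2 stood at 4797 and 1031 CPM, and in C1q macrophages outside them at 0.513 and 3.34 CPM. The neutrophil-marked share of the hypoxia-gene cells was 0.629% and 10.3%. H2-M2, a non-classical MHC class I gene, had 3 UMIs in the PBS cells, all in 1 cell, and 373 in UDSP-Hep, a ratio of 189 (64.3 to 923). G0s2 and Gm15056 were also among the 12. G0s2 is one of the genes that mark neutrophils here, and 1 cell held 69.4% of its PBS UMIs. Prf1, the killer cell gene perforin, was among the 12 too, at 3.01 on the log2 scale. It was at 1.76 without the cells with 3 or more T and NK marker UMIs. The proliferation list had 9 of 14 genes higher in UDSP-Hep with a median of 1.28, and without the cells with 3 or more T and NK marker UMIs 2 were higher and 1 lower, with a median of 0.094. Besides Ccl24 and Ccl7, the 12 lowest were Msx3 (53.9 and 3.43 CPM), Hspa1a and Hspa1b, which the rule limits, Dmkn, Gja1, Hbegf, Cd163, Timp1, Mt2 and Ccl12.

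Last, hypoxia-gene cells with and without a Nos2 UMI were compared within each library. This split and its gene choices were made after values had been seen. It set 163 against 314 PBS cells and 150 against 122 UDSP-Hep cells, and a gene counted when its ratio passed 1.5-fold in both libraries. Of 7293 genes, 111 (1.52%) were higher in the cells with Nos2 and 77 (1.06%) were lower. The median UMIs were 12542 against 12007 and 14694 against 12895, and the part of that depth in the split was not tested.

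**Figure D5:**
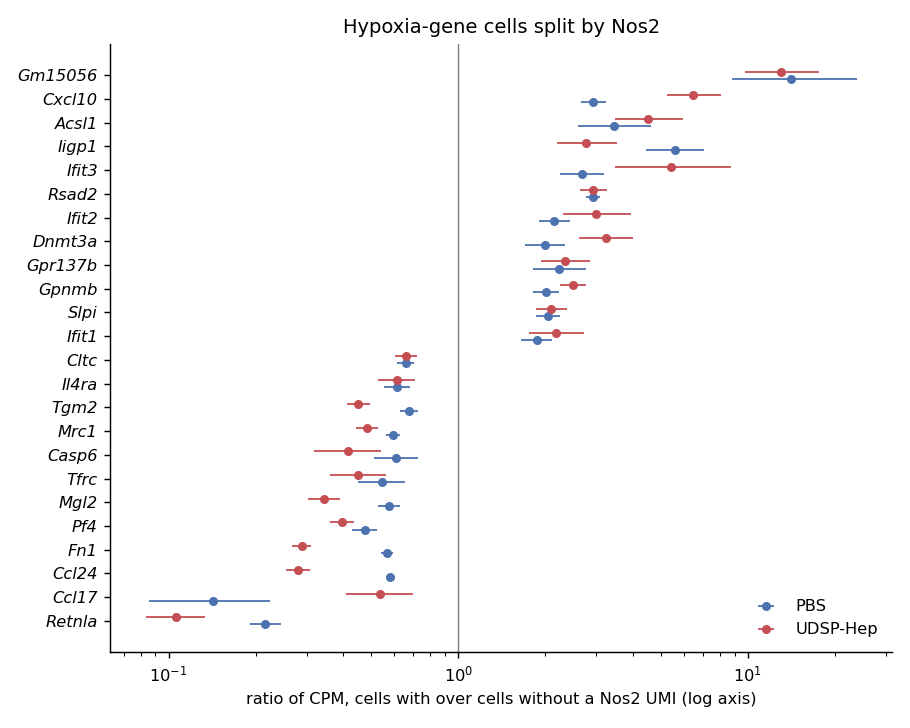
Ratio of CPM in hypoxia-gene cells with a Nos2 UMI over those without (x axis, log scale, 95% exact intervals) for 24 genes, in the PBS and UDSP-Hep libraries. Cxcl10, Rsad2 and the Ifit genes lie above 1 and Retnla, Pf4 and Ccl24 below 1 in both libraries.

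Cells with Nos2 held more type I interferon genes. Of 18 measured, 7 were higher and none lower, or 3 higher after thinning to 3000 UMIs, with medians of 0.51 (PBS) and 0.60 (UDSP-Hep) against medians of -0.020 and -0.059 over all genes. Rsad2, the antiviral enzyme viperin, stood at 1306 CPM with Nos2 and 449 CPM without in the PBS library, and at 627 and 214 CPM in UDSP-Hep. Ifit3 stood at 127 and 47.6 CPM and at 62.3 and 11.5 CPM. Cxcl10, which is on the interferon-gamma and chemokine lists, stood at 434 and 148 CPM in the PBS library. Its ratio in UDSP-Hep was 6.48 (5.26 to 8.05), so that all 3 genes were higher with Nos2 in each library. Of 19 interferon-gamma response genes 3 were higher with Nos2 and none lower, with medians of 0.28 and 0.40. Among them was Iigp1, with ratios of 5.58 and 2.77. Over all genes 1.52% were higher and 1.06% lower. Genes of the type I interferon response are known to carry an interferon-stimulated response element. The core of this element was searched in the same windows on both strands. The core is GAAA, 2 bases of any kind and GAAA again, or TTTC, 2 bases and TTTC on the other strand. It occurred in 2.98% of all 32851 promoters and in 8 of 17 (47.1%) of the type I interferon list. The windows of Ifit1 and Rsad2 show it in capitals.
Ifit1: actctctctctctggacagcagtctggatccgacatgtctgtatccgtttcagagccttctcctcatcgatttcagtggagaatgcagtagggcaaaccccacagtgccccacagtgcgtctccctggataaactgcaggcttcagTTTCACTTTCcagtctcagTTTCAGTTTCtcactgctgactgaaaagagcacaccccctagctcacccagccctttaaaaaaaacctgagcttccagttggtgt
Rsad2: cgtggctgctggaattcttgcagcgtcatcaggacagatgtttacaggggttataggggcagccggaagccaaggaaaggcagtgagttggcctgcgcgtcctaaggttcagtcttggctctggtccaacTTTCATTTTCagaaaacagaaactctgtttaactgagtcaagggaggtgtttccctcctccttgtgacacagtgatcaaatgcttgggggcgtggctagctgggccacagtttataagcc
They are chr19:34640639-34640888 on the plus strand, with 2 matches, and chr12:26456453-26456702 on the minus strand, with 1 match 120 bases before the start.

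Alternatively activated genes went the other way. Of 13 measured, 7 were lower in cells with Nos2 and none higher (medians -0.70 and -0.72). Retnla stood at 116 CPM with Nos2 and 538 CPM without in the PBS library, and at 31.9 and 301 CPM in the UDSP-Hep library. Its levels without Nos2 rested partly on single cells. In the PBS library 1 cell without Nos2 held 720 of its 2767 UMIs, and in the UDSP-Hep library 1 held 488 of 686. Mrc1 stood at 712 and 1196 CPM and at 315 and 651 CPM, and Ccl24 at 2076 and 3577 CPM and at 228 and 813 CPM. Each of these 3 was lower with Nos2 in both libraries. The rule itself shapes the hypoxia genes of this split, since a cell with Nos2 needed 3 of the other 5 genes and a cell without it 4. In the PBS library 74.8% of the cells with Nos2 and 10.2% of those without held at least 5 genes of the rule. So it is only a description that none of 22 glycolysis genes passed the fold in both libraries and that of 24 HIF targets 1 was higher and 1 lower. Arg1 stood at 3199 and 3663 CPM in the PBS library and at 1519 and 2869 CPM in the UDSP-Hep library. Nos2 was detected across the kinds of UDSP-Hep hypoxia-gene cell, in 60.2% of C1q macrophages, 53.5% of classical monocytes, 57.1% of neutrophil-marked cells and 51.1% of those with none of the limits. In the PBS library it was detected in 34.3%, 33.3%, 0 of 3 cells and 36.4%, in the same order.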

How the data were processed

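Each of the 2 libraries was deposited as a matrix of UMI counts, not normalized, over 32285 genes. Its header names Cell Ranger 7.0.0, per the file headers; the submitters' processing notes name it too, with the mm10 build and with Seurat, whose version and role are not given. Totals were 74685827 UMIs over 7379 barcodes (PBS) and 64241224 over 7872 (UDSP-Hep), and the filters on genes, UMIs and mitochondrial share removed 245 and 197 barcodes. Counts were summed over the cells of a group and library and given as CPM. Intervals of 95% are exact Poisson for CPM, Clopper-Pearson for shares, exact conditional binomial for CPM ratios and Katz for share ratios. They cover counting error only. Members and gene lists were chosen with earlier results of these data known.

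Scrublet marked 0 cells in each library, so it was not relied on, and doublets were not removed. Leaving out the 407 and 471 highest scores (0.8% per 1000 cells) was an alternative, and these scores took 7.55% and 12.1% of the hypoxia-gene cells against 2.31% and 6.36% of the other Lyz2-high cells. Classical monocytes had at least 2 Ly6c2 UMIs and under 0.02% of UMIs from C1qa, C1qb and C1qc; neutrophil-marked cells had at least 0.2% of UMIs from S100a8 and S100a9 and at least 3 neutrophil marker genes. Named genes were ranked by the interval bound nearest to equality, among genes with at least 50 CPM on the higher side, without the rule genes and without mitochondrial, ribosomal, haemoglobin, immunoglobulin, T cell receptor, Xist, Tsix and Y-linked genes. The 15 highest and 10 lowest were named for hypoxia-gene cells against others and 12 of each for UDSP-Hep against PBS, with list members as examples. Gene coordinates came from GENCODE M21 and promoters from RefSeq. Tools were Python 3.11.15, numpy 2.4.6, scipy 1.17.1, pandas 2.3.3, scanpy 1.11.5 and matplotlib 3.10.9. Scripts were tested on simulated data.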

Additional observations from a re-analysis of the deposited data

Results flagged for a closer look

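For 14 of 437 measured genes of the gene lists, the marker lists and the named genes, the difference between hypoxia-gene cells and other Lyz2-high cells was at least 1.5-fold in both libraries and had opposite directions. Over all 10129 genes 58 did so. The difference between the libraries was not tested. The values are log2 ratios of CPM, PBS first and UDSP-Hep second. Slc40a1 was at -2.68 and 1.73, with 8 UMIs in the PBS hypoxia-gene cells and 250 in UDSP-Hep, 194 of them in 1 cell. Marco, a scavenger receptor, was at -3.13 and 2.39, with 3 UMIs in PBS and 77 UMIs in 5 cells in UDSP-Hep. H2-M2 was at -2.83 and 2.86, with 3 UMIs in the PBS hypoxia-gene cells. Lcn2 was at -1.13 and 1.19, with 52 and 637 UMIs. Retnlg, a neutrophil marker, was at 1.99 and -2.44, and 1 cell held 99.2% of its PBS UMIs. The dendritic marker Clec9a was at -0.76 and 1.42 and the T cell marker Trbc2 at -0.64 and 0.67. The others are 7 genes of dividing cells. Top2a was at -1.34 and 1.82, Mki67 at -1.05 and 0.85 and Pclaf at -1.13 and 1.78. Birc5 was at -4.00 and 1.33, Ube2c at -3.43 and 1.15, Ccna2 at -2.09 and 1.53 and Stmn1 at -1.22 and 1.25. Their summed UMIs were 177 in the PBS hypoxia-gene cells and 620 in UDSP-Hep, where 4 cells held 502.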

How the results depend on the processing

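No paired analysis was possible because each group is 1 library, and no replicate could be left out. The share ratio of UDSP-Hep over PBS was 0.395 with Lyz2 of at least 1, against 0.560. Genes lower in hypoxia-gene cells numbered 1080 with each cell weighed the same and 1105 with at least 5 of 6 genes, against 702. Genes higher in UDSP-Hep numbered 564 after thinning, 763 with at least 5 of 6 genes and 475 with at least 200 UMIs, against 1180, and genes lower numbered 205 with at least 200 UMIs and 568 with median-of-ratios scaling, against 377. In the split by Nos2, the higher and lower counts were 37 and 30 after thinning, 175 and 177 with at least 20 UMIs and 47 and 25 with at least 200 UMIs, and 123 were lower with each cell weighed the same, against 111 and 77. These settings also change which genes are tested, as with the minimum of UMIs and thinning; for the other settings the cause was not tested. The settings on T and NK marker UMIs, on Lyz2 of at least 1, on the Hspa, Cd3e, Cd79a and Flt3 limits, and all those of the split by Nos2 were chosen after seeing the data. Directions turned for the proliferation median in UDSP-Hep hypoxia-gene cells over others (-0.40 with at least 5 of 6 genes), for the proliferation median of UDSP-Hep over PBS (-0.038 after thinning) and for Ccl17 in the split by Nos2 in UDSP-Hep (0.53 without cells with 3 or more T and NK marker UMIs). Of 68 values of the share and the gene counts under the alternatives, 53 stayed within their interval or within 1.5 times and 15 moved further. For named genes 716 values stayed within their interval and 368 moved, beside Ccl17. For list counts 917 stayed within 1.5 times and 203 moved, and for list medians 766 stayed within the median counting interval width of their genes (to either side) and 132 moved, beside the 2 that turned. Depth limits genes under 50 UMIs, and 1 library per group leaves no measure of the spread between tumours.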
